A study of Mus musculus with 4 samples.

Results

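The genes described here encode the amino acid transporters of the solute carrier families Slc1, Slc3, Slc6, Slc7, Slc36, Slc38 and Slc43. They were all the genes whose array annotation carries a symbol of these families, 59 genes on 106 probes. The array held 41174 non-control probes, of which 8104 could not be named and the rest covered 19822 genes. For a gene with several probes the brightest on average was used, and the 4 arrays came from 4 cultures of BALB/c mouse bone marrow cells. The rule used gene symbols and overall brightness, not differences between cultures, but the set was chosen with earlier results of these data known.

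Immature dendritic cells (imDCs) were CD11c-selected on day 4 from marrow grown with 10 ng/mL of GM-CSF and 5 ng/mL of IL-4. The medium held 10% fetal calf serum and 2 mM L-glutamine, and that of the cultures on stroma is not described in the labels. Mature dendritic cells (maDCs) came from such cells after another 4 to 5 days in 10 ng/mL lipopolysaccharide (LPS), which is a bacterial activator of dendritic cells. The third culture, called sDCs in the labels, was formed by lineage-depleted progenitors seeded on a layer of Sca-1+CD117-Lin- mesenchymal stem cells, with LPS added on day 4 and the cells formed on day 9. The fourth was the same with an antibody that neutralizes IL-10, an anti-inflammatory cytokine, added every 2 days (10 µg/mL). Purification is stated for all 4 populations, but the sources used here do not say how the sDCs were taken off the stroma. Each culture had 1 array, so no difference below has a replicate check, and no p-value is given. The imDC array lay on another slide than the other 3, so slide and culture cannot be told apart in comparisons with imDCs.

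Amino acid transporters move amino acids across the plasma membrane or out of lysosomes. Several Slc7 proteins work only as the light chain of a pair with a heavy chain from the Slc3 family, most often the CD98 heavy chain encoded by Slc3a2. Activated immune cells take up leucine, glutamine, arginine and cystine through such carriers for protein synthesis, for the growth kinase complex mTORC1, for nitric oxide and for glutathione. Lack of amino acids is sensed by the kinase GCN2, which raises translation of the transcription factor ATF4, and ATF4 activates several transporter genes.

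Of the 59 genes, 35 had a probe well above background on all 4 arrays, 14 on some arrays and 10 on none. Among the 10 were Slc1a7, Slc6a5, Slc6a18, Slc7a12, Slc7a13, Slc7a14, Slc38a5, Slc38a8 and Slc38a11, which include carriers best known from brain, gut and kidney. By array, 44 genes were above background in imDCs, 41 in maDCs, 41 in sDCs and 40 in antibody-treated sDCs. Over all non-control spots, 69.7%, 61.2%, 66.0% and 63.4% were well above background on the same arrays, with imDCs also highest. Levels are given as log2 signal relative to the 75th percentile of the same array, and can be compared between cultures for 1 gene but not between genes. Near background such a comparison also carries the dark end of each array, which differed between arrays. A difference of 1 is 2-fold, and genes are counted at that size. Where a probe was dim on 1 array the difference is a bound, written as "at least". Such a bound holds for the scaling and background correction used here, and another correction can give a smaller one.

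The cultures also differed in marker genes of whole cell types. All 14 dendritic cell markers were at least 2-fold lower in sDCs than in imDCs (median -4.63), and Irf4 and Cd209a were not well above background in sDCs. All 14 macrophage markers and all 15 mesenchymal stroma markers were above background in sDCs, and 14 and 13 of them were at least 2-fold higher there than in imDCs. The median stroma marker level (log2) was -3.76, -2.69, 2.96 and 2.23 in imDCs, maDCs, sDCs and antibody-treated sDCs. The summed stroma level was 7.26, 7.18, 7.81 and 7.07, and its brightest marker in imDCs and maDCs was Thy1, at 6.74 and 6.63 there and 4.72 in sDCs. The summed macrophage level was 5.89, 8.23 and 9.22 in imDCs, maDCs and sDCs. Neutrophil markers had a median level of 6.21 in imDCs and -0.57 in maDCs, and mast cell and basophil markers -2.48 and 1.41. The part of these cell types in the transporter differences was not tested. In these populations, fewer cells of a type and less RNA per cell cannot be told apart.

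**Figure D1:**
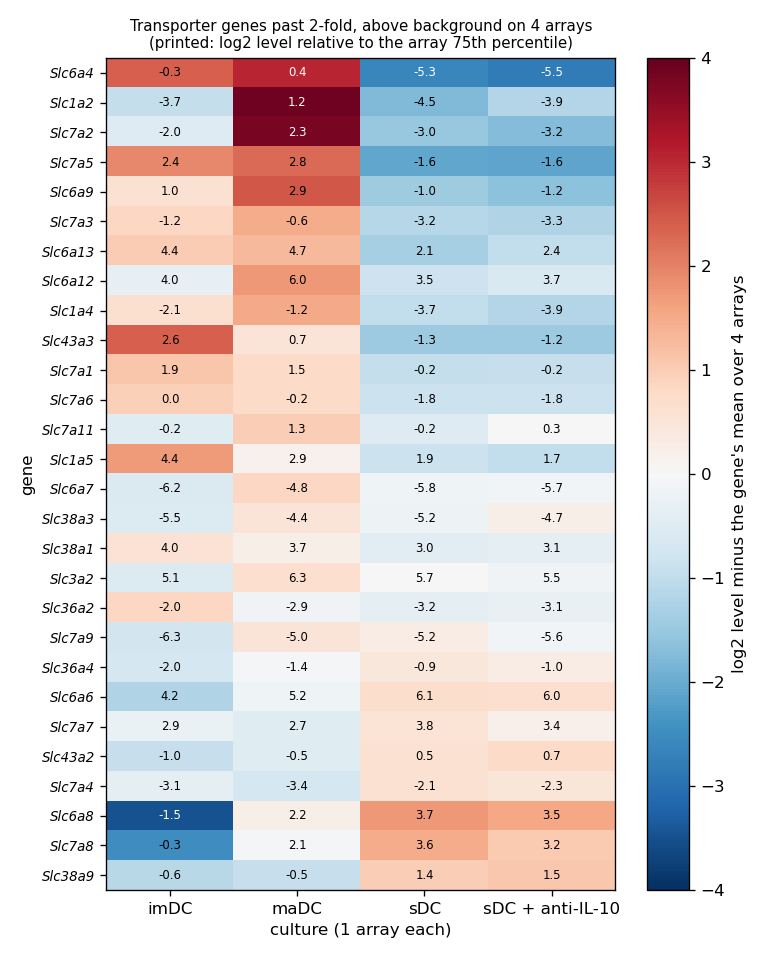
Levels of the 28 transporter genes past 2-fold in at least 1 comparison and above background on all 4 arrays. Rows are genes, columns are cultures with 1 array each, printed values are log2 levels relative to the array 75th percentile, and colour is the level minus the gene's own mean; the sDC and antibody-treated sDC columns look alike, and Slc7a5 is at 2.44 and 2.77 in imDCs and maDCs but at -1.57 and -1.61 in the sDC cultures.

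The first comparison asked how LPS-matured cells differed from immature ones. Of 41 transporter genes with a value, 17 were higher in maDCs by 2-fold or more and 2 lower, against 21.6% of 14106 genes higher and 10.8% lower over the whole array. The median was 0.65 for the transporter genes and 0.18 for all genes. Both shares moved with the scaling. With quantile normalization 11 of 43 were higher and 3 lower, against 16.8% and 13.6% of all genes, and with the authors' deposited values also 11 and 3 of 43, against 17.7% and 13.7%. The 6 genes that dropped below 2-fold under both were Slc3a1, Slc3a2, Slc6a6, Slc6a7, Slc7a9 and Slc38a3. LPS, time in culture and slide cannot be told apart here.

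Among glutamate carriers, Slc1a2, which encodes the sodium-driven glutamate importer known from astrocytes, had the largest difference measured on both arrays. Its levels were -3.71 in imDCs, 1.16 in maDCs, -4.50 in sDCs and -3.93 in antibody-treated sDCs, so maDCs stood alone at 29.2-fold above imDCs. Another probe gave a difference of 4.54, a dim one at least 4.17 and the last 1.27. Slc1a1, a glutamate and cysteine importer, was at -6.91 and -3.65 in imDCs and maDCs and not well above background in the sDC cultures. Its dim signals there, -6.17 in sDCs and -6.74 with antibody, were not below the imDC value, so no difference from imDCs is shown. Slc1a5, the main glutamine importer of many proliferating cells, went the other way, at 4.42, 2.90, 1.85 and 1.74 over the same 4 arrays. It was highest in imDCs and 2.87-fold lower in maDCs.

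In the cationic branch of Slc7, Slc7a2, an arginine importer induced in activated macrophages, was at -2.00, 2.30, -3.02 and -3.24 in imDCs, maDCs, sDCs and antibody-treated sDCs. The maDC culture was again the only high one, 19.7-fold above imDCs. Slc7a1, the arginine importer of most cell types, was at 1.85, 1.49, -0.21 and -0.19, and differed by -0.36 between maDCs and imDCs. Arg1 and Nos2, which encode the enzymes that use the imported arginine, were higher in maDCs by 5.11 and by at least 6.08, as log2 differences. They did not follow Slc7a2 in sDCs, where Arg1 was at 6.78 against 4.33 in maDCs and Nos2 at -1.78 against -1.20.

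The cystine importer gene Slc7a11, whose product pairs with the CD98 heavy chain and feeds glutathione synthesis, was at -0.17, 1.29, -0.20 and 0.32 across the 4 cultures. It was 2.75-fold higher in maDCs than in imDCs. Its other 3 probes gave 1.84, 1.34 and, on the dimmest, -0.07. Slc3a2 itself was at 5.10, 6.32, 5.66 and 5.50, a log2 difference of 1.22 in maDCs, with 0.07 on its other probe. Gclc, the catalytic subunit of the rate-limiting enzyme of glutathione synthesis, was higher by 0.97.

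The 250 bases before the RefSeq start of Slc7a11 are printed because this gene is a known ATF4 target. Capitals mark matches to the amino acid response element TGATGNAAN on either strand. Slc7a7 is shown beside it, at 1 of its listed starts, as the other transporter gene with a match. Both are from GRCm38.p6, read 5′ to 3′ on the minus strand, at chr3:50443614-50443863 and chr14:54417703-54417952.
Slc7a11: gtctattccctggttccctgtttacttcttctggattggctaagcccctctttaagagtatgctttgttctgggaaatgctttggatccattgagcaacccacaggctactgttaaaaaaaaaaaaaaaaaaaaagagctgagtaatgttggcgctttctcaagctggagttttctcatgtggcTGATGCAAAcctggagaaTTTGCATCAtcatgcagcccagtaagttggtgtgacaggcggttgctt
Slc7a7: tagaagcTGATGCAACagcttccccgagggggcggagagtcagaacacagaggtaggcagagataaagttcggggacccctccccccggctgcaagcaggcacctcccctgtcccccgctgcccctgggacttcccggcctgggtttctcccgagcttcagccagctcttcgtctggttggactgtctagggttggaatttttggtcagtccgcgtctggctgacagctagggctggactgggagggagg
In Slc7a11 the matches begin 66 and 48 bases before the start, on opposite strands. The element was found before 1129 of 32851 RefSeq starts (3.44%), and before 3 of the 62 starts listed for 41 transporter genes (4.84%). The core of the antioxidant response element, TGACNNNGC, searched on both strands, was found before 10.2% of all starts and before 9 of the 62 transporter starts (14.5%). It was not in the Slc7a11 window.

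Among Slc6 carriers, Slc6a8, the creatine importer, was at -1.53, 2.18, 3.68 and 3.48 in imDCs, maDCs, sDCs and antibody-treated sDCs, so imDCs alone were low and maDCs were 13.1-fold above them. Slc6a12, which imports betaine and GABA, was at 3.96, 6.03, 3.46 and 3.69, highest in maDCs. Slc6a9, a glycine importer, was at 1.01, 2.89, -1.02 and -1.23. Slc6a15, a neutral amino acid importer, was higher in maDCs by 3.03, but its other 2 probes gave no value in that comparison. Slc6a6, the taurine importer, was higher by 1.04.

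Further genes separated maDCs from imDCs. Slc7a8, which encodes a CD98 light chain (LAT2) for neutral amino acids, was 5.44-fold higher. Slc7a10, another light chain, known from brain, was at least 22.2-fold higher and above background in maDCs alone. With normexp background correction its log2 difference fell from 4.47 to 2.42. Slc43a3, listed in its family by sequence but known as a purine base carrier, was lower by 1.86 on the log2 scale (log2 difference -1.86).

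**Figure D2:**
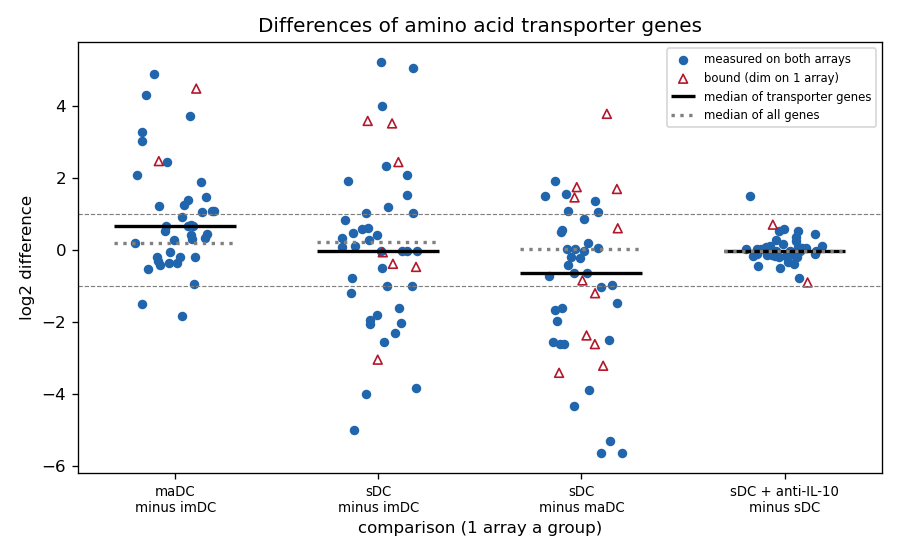
Log2 differences of the transporter genes in the 4 comparisons, with 1 point a gene, triangles for bounds, black bars for the median of transporter genes and dotted bars for the median of all genes. Dashed lines mark 2-fold; in the antibody column Slc6a17 is highest at 1.49 and Slc1a3 lowest, with a bound of -0.91.

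The second comparison asked how cells formed on stroma with LPS differed from immature cells. Of 45 transporter genes with a value, 13 were higher in sDCs by 2-fold or more and 14 lower, where 25.4% of 15035 genes were higher and 16.1% lower. The median was -0.03 for the transporter genes and 0.21 for all genes. Stroma, LPS, starting cells, slide and days of culture cannot be told apart in this comparison. The comparisons with imDCs share the imDC array, and the 2 with maDCs share the maDC array.

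The light chains of the CD98 pair split between cultures. Slc7a5 encodes LAT1, the leucine importer induced in activated lymphocytes, and its levels were 2.44, 2.77, -1.57 and -1.61 in imDCs, maDCs, sDCs and antibody-treated sDCs. Both sDC cultures were low, 16.2-fold below imDCs and 20.3-fold below maDCs. Slc7a8, encoding LAT2, went the other way, at -0.35, 2.09, 3.64 and 3.19, and was 15.9-fold higher in sDCs than in imDCs. Slc7a6, a light chain that exchanges cationic for neutral amino acids, was at 0.03, -0.17, -1.79 and -1.78, and its other measured probe differed by -0.85 between sDCs and imDCs. Slc7a7, a light chain of the same function that is known from macrophages, was at 2.94, 2.73, 3.77 and 3.42. The heavy chain gene Slc3a2 differed by 0.57 between sDCs and imDCs, but its other probe gave -0.48, so its direction is not settled.

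**Figure D3:**
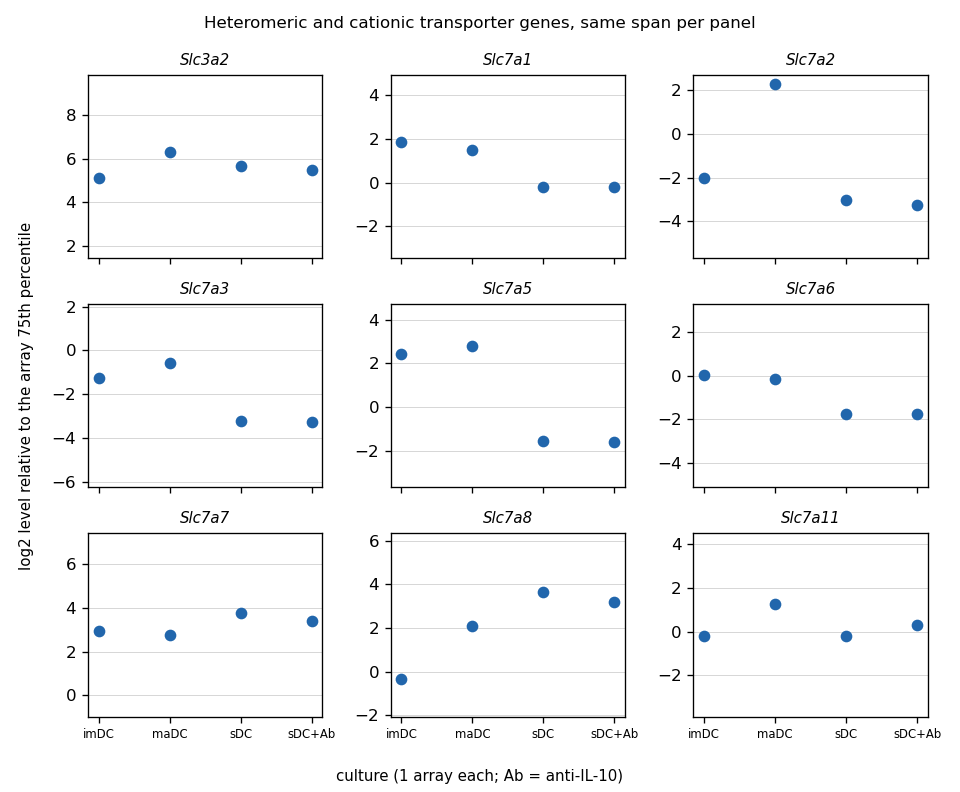
Levels of 9 heteromeric and cationic transporter genes in the 4 cultures, as log2 relative to the array 75th percentile, with 1 array a point and the same span in every panel. Slc7a5 is lower and Slc7a8 higher in both sDC cultures than in imDCs and maDCs, and Slc7a2 stands out in maDCs at 2.30.

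Other importers lower in sDCs than in imDCs included the cationic carriers Slc7a1 (-2.06), Slc7a3 (-1.97) and Slc7a2 (-1.02), Slc1a5 (-2.56) and Slc1a4 (-1.62), a serine and alanine carrier. The other probe of Slc7a1 gave -0.29. Slc6a4, the serotonin transporter, was at -0.27, 0.39, -5.27 and -5.46 over the 4 arrays, 32.2-fold lower in sDCs than in imDCs. It is also known from mast cells and basophils, whose summed marker level was 4.73, 7.11, -0.58 and -0.20 on the same arrays. Of 8 such markers with a value, 7 were lower in sDCs than in imDCs and 1, Mcpt4, was higher by 2.87. The part of these cells in the Slc6a4 difference was not tested. Slc43a1, a leucine carrier, was at least 8.33-fold lower, a log2 bound of -3.06 that became -1.37 with normexp background correction. Slc38a1, a glutamine carrier, differed by -1.02, and its other 4 probes gave -2.07 to -0.95.

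Genes higher in sDCs than in imDCs were led by Slc6a8 (37.0-fold) and Slc1a6, a glutamate carrier known from cerebellum (33.3-fold). Slc1a6 was at -6.73, -6.48, -1.67 and -2.17, and its maDC value was not well above background. Its imDC value lay near background, so its fold is less certain than that of Slc6a8. With normexp background correction its log2 difference fell from 5.06 to 3.11, while that of Slc6a8 went from 5.21 to 5.09. Slc38a4, a neutral amino acid carrier known from liver, was at least 11.9-fold higher, Slc6a19, known from gut and kidney, at least 11.3-fold, and Slc1a3, a glutamate carrier of glia, at least 5.39-fold. These last 3 were dim in imDCs and maDCs. With normexp background correction their log2 differences fell from 3.57, 3.50 and 2.43 to 1.76, 1.63 and 1.15. The other probes of Slc1a3 and Slc38a4 were dim on all 4 arrays. Slc38a9, a lysosomal arginine sensor that signals to mTORC1, was at -0.64, -0.47, 1.43 and 1.53, higher in both sDC cultures. Its other probes were both higher in sDCs than in imDCs, the brighter by 0.84.

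Several carriers lay near the same level in all cultures. Slc38a2, an ATF4-responsive glutamine and alanine importer, was at 3.81, 3.61, 3.78 and 3.85 on its brightest probe, but 2 of its other 3 probes were higher in sDCs than imDCs, by 2.04 and 1.33, and the remaining one gave -0.27. Slc38a10 was at 3.89, 3.83, 3.84 and 3.79. Slc36a1, a proton-coupled lysosomal carrier, was at 0.90, 0.35, 0.85 and 0.81.

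Slc1a4 was at -2.11, -1.22, -3.74 and -3.92 in imDCs, maDCs, sDCs and antibody-treated sDCs, Slc7a3 at -1.24, -0.57, -3.21 and -3.27, and Slc6a13 at 4.40, 4.69, 2.07 and 2.41. All of these were lower in both sDC cultures than in imDCs and maDCs. Slc43a3 was at 2.60, 0.74, -1.26 and -1.24, highest in imDCs. Slc43a1 was at -2.98 and -3.41 in imDCs and maDCs and dim in both sDC cultures. Slc36a2, a proton-coupled carrier, was at -1.95, -2.91, -3.15 and -3.06, again highest in imDCs.

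Other genes were higher in the sDC cultures. Slc6a6 was at 4.18, 5.22, 6.08 and 6.04, Slc43a2 at -0.98, -0.54, 0.54 and 0.71, and Slc36a4, a carrier related to Slc36a1, at -2.03, -1.38, -0.85 and -1.01, with imDCs lowest each time. Slc7a4, related to the cationic carriers, was at -3.12, -3.45, -2.11 and -2.25. Slc38a4 was at -3.71 and -4.51 in sDCs and antibody-treated sDCs, Slc6a19 at -3.78 and -3.90, and Slc1a3 at -4.85 in sDCs and dim with antibody.

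Several dim genes were brightest in maDCs. The dark end differed between the arrays. Slc6a5, dim on all 4, was at -9.31 in imDCs and -7.57 in maDCs, but Slc38a8, also dim, was at -7.30 and -7.43. Slc6a15 was at -5.64, -2.61 and -5.35 in imDCs, maDCs and antibody-treated sDCs and dim in sDCs. Slc7a10 and Slc6a2, the noradrenaline transporter, were at -2.81 and -4.82 in maDCs and dim elsewhere. Slc6a7, a proline carrier known from brain, was at -6.19, -4.80, -5.78 and -5.72, Slc38a3, a glutamine carrier known from liver and brain, at -5.47, -4.41, -5.15 and -4.71, and Slc7a9, a light chain known from kidney, at -6.26, -5.02, -5.24 and -5.65. Its heavy chain partner Slc3a1 was at -6.26 and -5.18 in imDCs and maDCs and dim in the sDC cultures. With normexp background correction, Slc6a7, Slc38a3, Slc7a9 and Slc3a1 differed by 0.90, 0.78, 0.80 and 0.78 between maDCs and imDCs, short of 2-fold. The remaining genes with a value, Slc6a3, Slc6a11, Slc6a14, Slc6a16, Slc7a15, Slc36a3 and Slc38a7, were not past 2-fold in any comparison, bounds included.

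The third comparison set the LPS-exposed cultures of one slide against each other. Of 46 transporter genes with a value, 19 were at least 2-fold lower and 10 higher in sDCs than in maDCs, where 16.8% of 14599 genes were lower and 14.2% higher. The median was -0.66 for transporter genes and 0.03 for all genes. The starting cells, the stromal layer and the recorded cytokines differed too. The largest differences were in Slc6a4 (50.6-fold lower), Slc1a2 (50.5-fold lower), Slc7a2 (39.9-fold lower) and Slc7a5. The probes of Slc1a2 disagreed in size, since others gave -5.93, a bound of -2.93 and -0.02, and their average with the brightest was -3.63. Slc6a9 was 15.0-fold lower, Slc6a13, a GABA and taurine carrier, 6.14-fold lower and Slc6a12 5.92-fold lower. Slc7a11 was lower by 1.49 (log2 difference -1.49), with -2.42, -1.64 and 0.08 on its other probes. Higher in sDCs were Slc1a6 (at least 13.6-fold), Slc38a9 (3.74-fold), Slc7a8 (2.92-fold), Slc6a8 (2.82-fold), Slc7a7 (2.05-fold) and Slc43a2, a leucine carrier (2.11-fold). Slc6a17, at least 3.21-fold higher on its brightest probe, was lower by 1.94 on another probe (log2 difference -1.94). With normexp background correction the log2 differences of Slc1a6 and of the brightest Slc6a17 probe fell from 3.77 and 1.68 to 2.40 and 0.90.

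By family, Slc7 had 7 of 12 genes with a value lower and 3 higher in sDCs than in maDCs, Slc1 had 4 of 6 lower and 1 higher, and Slc6 had 6 of 13 lower and 3 higher. Slc38 had 2 of 7 higher and none lower, and Slc43 had 1 of 3 higher and 2 lower. None of the 3 Slc36 genes and neither Slc3 gene with a value passed 2-fold.

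The fourth comparison asked how sDCs formed with the IL-10 antibody differed from those without it. Among 41 transporter genes with a value, 1 was at least 2-fold higher and none lower than in sDCs, where 0.862% of 14392 genes were higher and 1.26% lower. The gene was Slc6a17, a neutral amino acid carrier of synaptic vesicles, at -3.76 in sDCs and -2.27 with antibody. Its other probes gave no value there. Slc6a15, dim in sDCs, was at least 0.69 higher with antibody on its brightest probe. Of its other probes, one was at least 3.21 higher and one lower, with a bound of -0.45, so they did not share a direction. The median of the transporter genes was -0.04. Slc7a11 was higher by 0.52, and its other 3 probes by 0.26 to 0.56. The lowest differences were in Slc1a3, with a bound of -0.91, and Slc38a4 at -0.80, followed by Slc1a6 at -0.50 and Slc7a8 at -0.45. In comparison, differences between these cultures had an SD of 0.28 over all genes measured on both arrays. On this array 6 of 11 neutrophil markers were at least 2-fold higher than in sDCs, and the median stroma marker differed by -0.80.

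Genes that sense, make and use amino acids were read from lists next to the transporters. Over all genes, 21.6% were higher and 10.8% lower in maDCs than in imDCs. In sDCs, 25.4% were higher and 16.1% lower than in imDCs, and 14.2% higher and 16.8% lower than in maDCs. The amino acid response and ATF4 target list had 7 of 16 genes higher and none lower in maDCs than in imDCs (median 0.73), led by Ddit4, an mTORC1 inhibitor (3.12), and Vldlr (2.14). Atf4 itself differed by -0.07, Asns, asparagine synthetase, by -0.83 and Trib3 by 0.07. In sDCs against imDCs 4 were higher and 4 lower (median 0.16), and Asns differed by -1.78. The serine, glycine and proline synthesis list had 6 of 9 genes lower in maDCs and 7 of 9 lower in sDCs than in imDCs (medians -1.08 and -2.03). Phgdh, the first enzyme of serine synthesis, differed by -1.07 and -5.27 in these comparisons, and Shmt1 by -2.21 and -4.47. Cytosolic aminoacyl-tRNA synthetases were lower in 8 of 20 cases in maDCs and in 8 of 20 in sDCs against imDCs, and none passed 2-fold between sDCs and maDCs.

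Of 24 genes of mTORC1 amino acid sensing, 3 were higher in maDCs than in imDCs, Castor1 (1.87), Lamtor3 (1.62) and Tsc1 (1.59), and 5 higher with 2 lower in sDCs. The shares higher were below those over all genes, 21.6% in maDCs and 25.4% in sDCs. Glutathione genes had 1 of 10 higher and 2 lower in maDCs, and Gclc and Gclm were lower in sDCs than in maDCs (-1.66 and -1.19). Of 18 amino acid consuming enzyme genes with a value, 9 were lower and 1 higher in sDCs than in maDCs (median -1.07). Il4i1, which consumes phenylalanine, differed by -6.42, Ido2, of the tryptophan-consuming enzymes, by -4.34 and Arg1 by 2.46. Carriers of amino acids or peptides from other families had 4 of 14 higher and none lower in maDCs than in imDCs. Slc32a1, a vesicular GABA and glycine carrier, was higher by 2.87 and Slc15a3, a lysosomal peptide carrier, by 2.70.

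**Figure D4:**
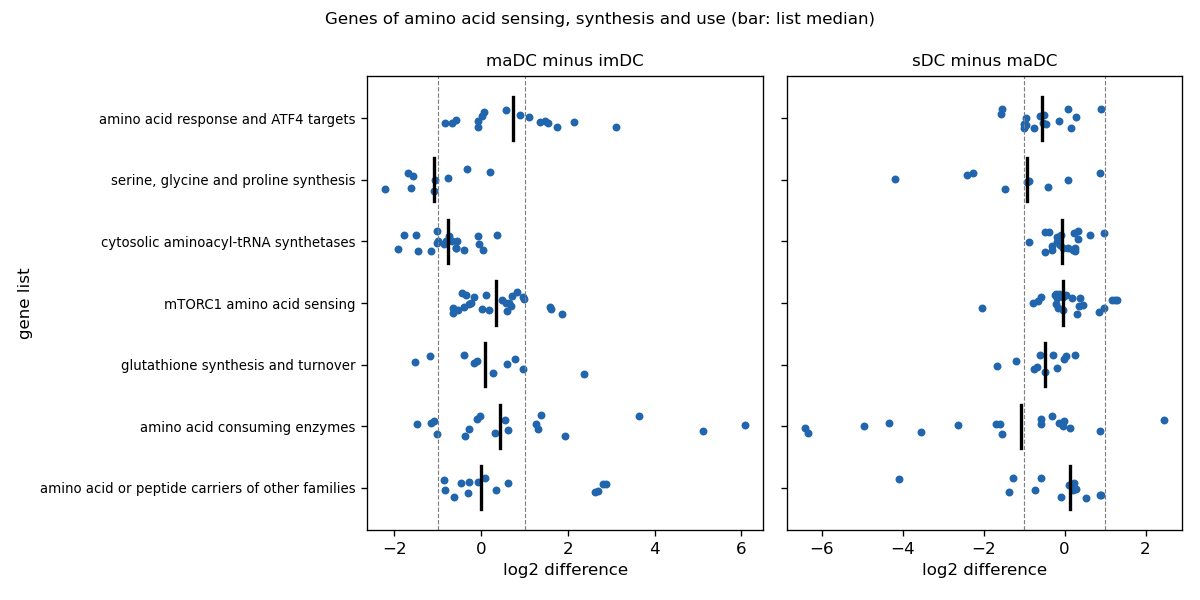
Log2 differences of genes that sense, make and use amino acids, with 1 point a gene and a bar at each list's median, for maDC minus imDC on the left and sDC minus maDC on the right. Dashed lines mark 2-fold; serine, glycine and proline synthesis lies lower in both panels, at medians of -1.08 and -0.92.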

How the data were processed

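Gene expression was measured in 4 cultures with 1 one-colour Agilent array each, and groups follow the sample titles. The authors deposited scanner intensity values, made per the file headers with Agilent Feature Extraction 10.5.1.1 (the submitters' processing notes name 9.1), with detrending and surrogate values for dim spots. They also deposited a log2 value table, whose columns share a median of 6.30 as quantile normalization gives. Its scale, with no gene centring, was read from its correlation with the scanner values (0.997 or higher). From the intensities, log2 was taken and each array's 75th percentile subtracted. Outlier spots were left out, and no non-control spot was saturated. Repeated spots had a median SD of 0.048 to 0.059 log2 units, which covers spotting and scanning only, and the number of arrays limits the precision. On a dim side the probe was set to the lowest signal well above background, or to its own where that was higher. For counts over all genes and for the gene lists, probes were named through RefSeq GRCm38.p6 (25097 by accession, 6333 by symbol, 1640 by synonym, 8104 unnamed). The transporter genes were picked by the array's own gene symbols. Transporters past 2-fold and their partners were named, with up to 3 genes of each list. Atf4, Asns, Trib3, Phgdh, Gclc, Nos2, Slc38a2, Slc38a10 and Slc36a1 were picked after their values were seen. The members and lists were chosen with earlier results of these data known. The calculation was tested on simulated data (maDC minus imDC, 100 of 100 probes changed by 1.6 log2 units were recovered among 28382 unchanged). The simulated arrays were copies of the imDC array with small noise, a shift in scale and the same background flags. Only bright probes were changed, so bounds and spread between cultures were not tested. Python 3.11.15, R 4.3.3 and limma 3.58.1 were used. Tried alternatives were scaling, background correction, the authors' values, filters, probe choice and outlier spots. 1 transporter gene is counted but not reported here by name.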

Additional observations from a re-analysis of the deposited data

How the results depend on the processing

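Of 76 transporter differences past 2-fold, 59 stayed past it in the same direction in every one of the 8 alternatives that gave a value. For these differences, requiring signal on all 4 arrays could only remove values, and using no filter could only keep or widen them. Averaging probes changed nothing for genes with a single probe, so part of the agreement was fixed in advance. By alternative, 14 fell short with normexp, 9 with quantile normalization and 8 with the authors' values. Of 587 values, 36 fell short of 2-fold and 1 reversed, Slc6a17 in sDCs against maDCs (-0.13 with all probes averaged). For maDCs against imDCs, 11 of 43 genes were higher with quantile normalization and 11 of 43 with the authors' table (16.8% and 17.7% of all genes). The median was then 0.36 and 0.39, 0.51 over genes above background on all 4 arrays and 0.54 with all probes averaged. Quantile normalization moved the median of all genes from 0.18 to -0.02. For sDCs against imDCs, 8 of 35 were higher over genes above background on all 4 arrays (22.4% of all genes), and the median was -0.22 with quantile normalization, -0.22 with the authors' table, 0.41 with normexp, 0.10 without a filter and 0.075 with all probes averaged. For sDCs against maDCs, 6 of 46 were higher with normexp (10.9% of all genes) and 6 of 35 over genes above background on all 4 arrays (12.8%), and the median was -0.54, -0.32, -0.59 and -0.53 with quantile normalization, normexp, the authors' table and no filter. For the antibody, 0 were higher over genes above background on all 4 arrays (0.363% of all genes) and 2 without a filter (1.56%). With all probes averaged 2 were higher, and no share over all genes was computed for that setting. Without a filter 1 was lower (2.95% of all genes). The cause was not tested. No paired analysis was possible because each group has 1 array. Dim probes limit the 14 genes above background on only some arrays.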
